A study of Bos grunniens and Bos grunniens x Bos taurus with 2 samples.

Results

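Deep germ cells of the yak testis were the droplets that carried more RNA than the upper depth limits of the library and at the same time carried RNA of meiotic or spermatid genes. They numbered 302 of the 11991 cells of the yak library, or 2.52% (exact binomial 95% interval 2.25 to 2.81), and of 20921 cells in the series. A cell was taken when it had more than 21211 unique molecular identifiers (UMIs, 1 per captured RNA molecule) or more than 3636 genes with a UMI, when the raw UMIs of *MAEL*, *TDRD9*, *SYCP3*, *TEX12*, *PIWIL1*, *DMC1*, *HMGB4* and *TNP1* came to at least 10, and when those of the stem cell genes *PIWIL4*, *SPOCD1* and *MORC1* came to fewer than 5. Depth and these 11 genes therefore chose the cells, and their values are given below as a description only. None of the 302 cells was in the authors' list of typed germ cells, and none of the 1127 typed cells found in the library passed either depth limit.

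The series held 2 single-cell libraries made with the 10x Genomics droplet method from polyadenylated RNA. One came from the testis of a yak (*Bos grunniens*) after sexual maturity and the other from the testis of a sexually mature cattle-yak, the hybrid of *Bos grunniens* and *Bos taurus*, with no treatment in either group. Frozen testis tissue was digested with collagenase IV, hyaluronidase and trypsin and filtered. The labels name the cells germ cells, but the material was whole testis, and cells with vessel and muscle genes made up much of the deep fraction described below. With 1 library per group there was no replicate check, so no test between groups could be made, and every interval below covers counting error only.

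In the testis, spermatogonia divide by mitosis, replicate their DNA a last time and enter meiosis, where homologous chromosomes are joined by the synaptonemal complex and exchange DNA. Pachytene spermatocytes are large cells that transcribe heavily, store messages for later use and make piRNAs, small RNAs of the germ line, some of which silence transposons. After the meiotic divisions, round spermatids build the acrosome and the flagellum, and elongating spermatids replace histones by transition proteins and then protamines.

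The label was checked against its 4 markers, of which 3 were also used to choose the cells. Over all deep germ cells summed, *HMGB4*, a chromatin protein of spermatids, stood at 862 CPM (95% interval 845 to 880.2), where CPM is UMIs per 1000000 UMIs of the group. *PIWIL1*, the piRNA-binding protein of pachytene cells, stood at 198 CPM (95% interval 189.6 to 207), and *TEX12*, a central element protein of the synaptonemal complex, at 92.0 CPM (95% interval 86.3 to 97.9). *AIF1*, which is not a rule gene, stood at 441 CPM (95% interval 428 to 453). In the 406 deep cells of the same library that missed the germ minimum and had fewer than 5 stem gene UMIs, these genes stood at 3.55, 1.22, 6.80 and 7.72 CPM in the same order. For *HMGB4*, *PIWIL1* and *TEX12* this contrast was fixed by the choice of the cells. *AIF1* was not in the rule, but 80 of the 89 deep germ cells with 10 or more of its UMIs had 10 or more of the rule gene *HMGB4*, enough to be chosen, so its contrast is a description too. *PIWIL1* and *TEX12* both had a UMI in all 15 pachytene-like cells described below, and all 80 cells with 10 or more *HMGB4* UMIs also had 10 or more of *AIF1*.

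The germ minimum was met by different genes in different cells. *MAEL*, a piRNA pathway gene, gave the most rule UMIs in 155 cells, *HMGB4* in 71, *PIWIL1* in 35, *SYCP3* in 14, *TEX12* in 14, *TDRD9* in 12 and *DMC1* in 1. Without *MAEL*, 77 of the cells would have fallen below the minimum. Just inside the limit, the 22 cells with 10 to 12 rule UMIs had a median mitochondrial share of 11.3%, a spermatogonium-like marker sum of 1561 CPM and a pachytene-like marker sum of 2779 CPM. Just outside it, the 18 deep cells with 7 to 9 rule UMIs had 16.7%, 2592 CPM and 874 CPM. The cells on both sides of the limit thus carried spermatogonial and meiotic RNA. The endothelial and muscle marker sums were 386 and 720.2 CPM just inside the limit and 182 and 224 CPM just outside it. At the depth limit, the 20 germ cells with the fewest genes had a muscle marker sum of 122 CPM, an elongating spermatid-like sum of 574 CPM and an early meiotic-like sum of 3910.4 CPM. The 20 cells with the most genes below the limits that met the same germ rule had 2196, 2533 and 3191 CPM in the same order.

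All 302 cells passed the gene limit, 227 passed both limits and 75 passed the gene limit alone. Their UMIs ran from 12010 through a median of 30233 to 170998, and together they held 17.6% of the UMIs of the yak library, 10701072 of 60816600. The typed cells were far shallower, with medians of 979.5 UMIs in spermatogonia (SPG, 486 cells), 1799.5 in early spermatocytes (early-SPC, 72 cells), 1168 in late spermatocytes (late-SPC, 261 cells) and 906 in spermatids (SPT, 224 cells). The deep cells with few germ UMIs had a median of 21964. A further 162 cells met the germ minimum below the depth limits, and 63 of these were typed. Of the 24 barcodes that occurred in both libraries, 0 belonged to deep germ cells.

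Clustering without the genes of the program lists split the deep germ cells into 14 clusters, which were named only where marker genes allowed it. Clusters 1 and 2 were spermatogonium-like (50 cells, but 9 at the coarser Leiden resolution of 0.5), clusters 3 to 5 early meiotic-like (62 cells), cluster 6 pachytene-like (15 cells) and clusters 11 to 13 round spermatid-like (70 cells). Clusters 7 to 10 (96 cells) stayed unnamed, because pachytene and division markers tied in cluster 7, with 6 of each enriched, and too few markers were enriched in the others. Cluster 14 (9 cells) carried all 9 endothelial and all 9 muscle markers of the lists and was left without a name as a mixed cluster. In cluster 6 early meiotic and pachytene markers also tied, 4 against 4, and the name rests on *PIWIL1* and *HSPA2* among its 10 leading genes. The calls of clusters 2 and 3 were close. Cluster 2 had 6 spermatogonium-like and 5 early meiotic-like markers enriched, and cluster 3 had 6 and 7 in the same order. Clusters 12 and 13 had 9 of 11 measured round spermatid-like and all 7 measured elongating spermatid-like markers enriched. The numbers order the clusters by list levels and carry no time. Class names rest on marker genes of the same stages as the program lists, and the 2 kinds of list share genes. A list that is highest in the class named for its stage is therefore a description only.

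The genes with the largest ratio of each cluster to the other deep germ cells are given as a description, since the cells were clustered on such genes. Cluster 1 was led by *ASB9*, *A2M* and *PTPRG*, cluster 2 by *TCF19*, *LY6E* and *MBNL3*, and cluster 3 by the linker histone genes *H1-1*, *H1-4* and *H1-2*. *TOP2B* was among the leaders of cluster 5 and *TDRD1* of cluster 6. Cluster 7 was led by *PCDH8*, *LHX1* and *CCDC38*, cluster 8 by *ILK*, *BBS12* and *RFX8*, cluster 9 by *DSCAM* and *NOTO*, and cluster 10 by *NME6*, *TAC1* and *NOTO*. *DTHD1* was among the leaders of cluster 11, *CYP1B1* of cluster 12, *FAM71B*, *CSTL1* and *DCDC2C* of cluster 13, and *COL4A2*, a basement membrane collagen, and *ROBO4*, a receptor of endothelial cells, of cluster 14. The 3 leading genes of cluster 4 had no symbol.

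**Figure D1:**
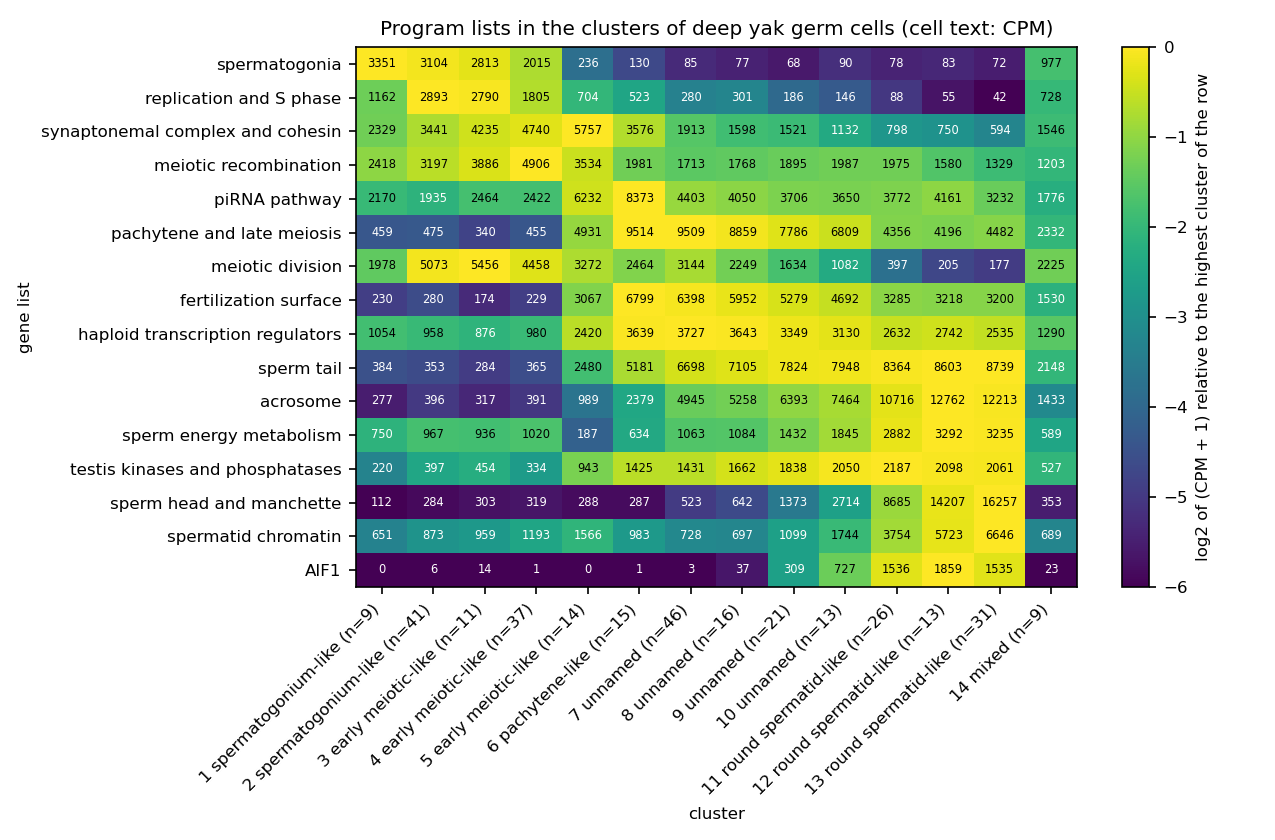
Summed level of each program list (rows) in the 14 clusters of deep yak germ cells (columns), with the CPM printed in each field and the colour giving its log2 ratio to the highest cluster of the row. Spermatogonial and replication lists are highest among clusters 1 to 4, and the acrosome, head and chromatin lists in clusters 11 to 13.

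The share of mitochondrial RNA differed strongly among the deep germ cells, from 0.143% through a median of 2.24% to 33.1%. The medians were 17.0% in the spermatogonium-like, 11.8% in the early meiotic-like, 4.07% in the pachytene-like, 1.65% in the unnamed and 0.269% in the round spermatid-like cells, against 8.03% in the mixed cluster. The typed cells did not spread in this way, with medians of 14.4% in SPG, 11.9% in early-SPC, 9.24% in late-SPC and 8.86% in SPT. Depth moved with class too, with median UMIs of 21152, 18679.5, 58773, 34922 and 34154 in the same order. The deepest cells by median were therefore the pachytene-like ones, and the round spermatid-like cells had hardly any mitochondrial RNA. Summed list differences between deep and typed cells are therefore also given for several lists with mitochondrial RNA, alone or with ribosomal RNA, left out of both sides.

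**Figure D2:**
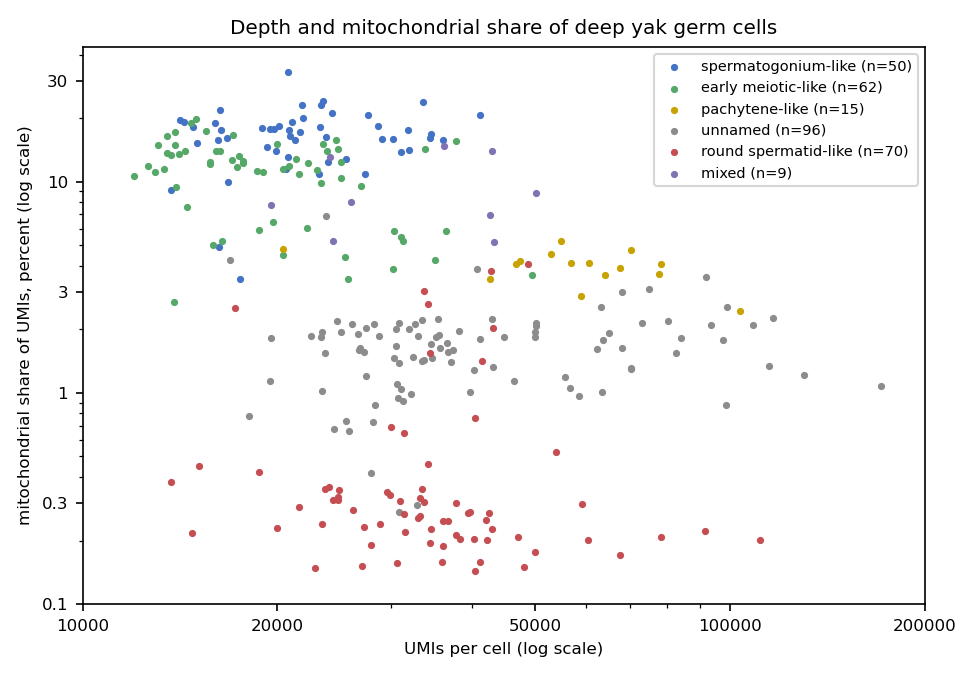
Mitochondrial share of UMIs (percent, log scale) against UMIs per cell (log scale) for each of the 302 deep yak germ cells, 1 point per cell, coloured by cluster class. Round spermatid-like cells lie at a median of 0.269% and spermatogonium-like cells at 17.0%.

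Spermatogonial genes were carried by the spermatogonium-like and early meiotic-like cells. The 12 measured genes of the list summed to 3149.9 CPM (95% interval 3048 to 3255) in the spermatogonium-like cells and to 1616 CPM in the early meiotic-like cells, but only to 129.7, 81.5 and 76.4 CPM in the pachytene-like, unnamed and round spermatid-like cells. The deep cells with few germ UMIs had 309 CPM. *UCHL1*, a ubiquitin hydrolase of spermatogonia, ran from 12 through 37 to 160 UMIs per spermatogonium-like cell and from 0 through 0 to 3 in the unnamed cells, without overlap. *UCHL1* is one of the markers behind the spermatogonium-like name, so this gap is a description only. *DMRT1*, a transcription factor that holds spermatogonia back from meiosis, stood at 542 CPM in spermatogonium-like and 279.6 CPM in early meiotic-like cells, and *DMRTB1*, which governs the passage to meiosis, at 349 and 249 CPM. *SCML2*, a Polycomb protein of the germ line, was slightly higher in the early meiotic-like (173 CPM) than in the spermatogonium-like cells (131 CPM).

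The 12 replication genes had the same order, with 2569.7 CPM (95% interval 2477 to 2664) in the spermatogonium-like, 1642 in the early meiotic-like, 523 in the pachytene-like, 253 in the unnamed and 62.0 CPM in the round spermatid-like cells. The genes for the helicase subunits that open replication origins were the most abundant. *MCM2* stood at 564, 328 and 1.55 CPM in spermatogonium-like, early meiotic-like and round spermatid-like cells. *MCM3* stood at 466, 216 and 1.55 CPM and *MCM5* at 351, 194 and 19.4 CPM. *MCM7* kept more of its level in the pachytene-like cells (165 CPM, against 266 in the spermatogonium-like) than *MCM2* did (37.7 CPM).

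Genes of the synaptonemal complex and of meiotic cohesin were highest in the early meiotic-like cells. The 13 measured genes summed to 4959.7 CPM (95% interval 4838 to 5083) there, to 3233 CPM in the spermatogonium-like, 3576 in the pachytene-like, 1729 in the unnamed and 699 CPM in the round spermatid-like cells. From cell to cell the early meiotic-like sums ran from 2146 through 4603 to 13500.4 CPM. Those of the round spermatid-like cells ran from 203 through 712 to 2047 CPM, so none of them reached the lowest early meiotic-like cell. The early meiotic-like name rests on early meiotic markers, so this gap is a description only. *SMC1B*, the meiotic cohesin subunit, stood at 1183 CPM in early meiotic-like and 1124 CPM in pachytene-like cells, and *SMC3*, a general cohesin subunit, at 1297 and 104 CPM. *SYCP1*, the transverse filament, stood at 688 and 464 CPM in those classes, whereas *SYCE1*, of the central element, was higher in pachytene-like (435 CPM) and unnamed cells (386 CPM) than in early meiotic-like cells (105 CPM). The rule genes *SYCP3*, of the lateral element, and *TEX12* reached 441 CPM in cluster 4 and 459.6 CPM in cluster 5.

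The 22 measured recombination genes also peaked in the early meiotic-like cells, at 4320.1 CPM (95% interval 4207 to 4436), with 3052 CPM in the spermatogonium-like, 1981 in the pachytene-like, 1779 in the unnamed and 1622 CPM in the round spermatid-like cells. Between the early meiotic-like and the round spermatid-like cells this list differed less than the synaptonemal list did. *MND1*, a partner of the strand exchange proteins, stood at 296 CPM in the early meiotic-like and 500.3 CPM in the unnamed cells. *TEX15*, needed for meiotic repair and for silencing of transposons, was at 2.22 CPM in the pachytene-like and 359 CPM in the round spermatid-like cells. *HSF2BP*, which brings BRCA2 to meiotic breaks, lay between 69.2 CPM in spermatogonium-like and 236 CPM in pachytene-like cells. *ANKRD31*, which helps place the breaks, was highest in early meiotic-like cells at 689.6 CPM.

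*DMC1*, the meiotic strand exchange protein and a rule gene, showed 2 separate high points. It stood at 88.6 CPM in early meiotic-like cluster 4, had no UMI among the 15 pachytene-like cells and 1.48 CPM in cluster 7. In clusters 9 to 13 it stood at 40.5, 72.0, 167, 271 and 283 CPM. Each of the 70 round spermatid-like cells had a *DMC1* UMI, from 1 through 8 to 28 per cell, and 28 of the 62 early meiotic-like cells had one.

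The piRNA pathway list was highest in the pachytene-like cells, whose name rests in part on *PIWIL1*, a rule gene and a member of this list. Its 19 measured genes summed to 8373 CPM (95% interval 8185 to 8564) there, against 1979 CPM in the spermatogonium-like, 3575 in the early meiotic-like, 4163 in the unnamed and 3598 CPM in the round spermatid-like cells. Without its rule genes, an alternative chosen after seeing the data, the list came to 6648 CPM in the pachytene-like, 3534 in the unnamed, 2949 in the round spermatid-like, 2760 in the early meiotic-like and 1493 CPM in the spermatogonium-like cells. *PIWIL1* ran from 21 through 71 to 136 UMIs in the pachytene-like cells and from 0 through 0 to 1 in the round spermatid-like cells. It reached 1039 CPM in cluster 5 and 1299 CPM in cluster 6, and stood at 159.8 CPM in cluster 7. *DDX25*, an RNA helicase of the chromatoid body, stood at 1762 CPM in the pachytene-like and 1059 CPM in the round spermatid-like cells, and *RNF17*, a tudor protein of germ granules, at 927 and 41.5 CPM. *GTSF1*, which acts with PIWI proteins in silencing, went the other way, with 416 CPM in the pachytene-like and 1758 CPM in the round spermatid-like cells. *MAEL* and *TDRD9*, the piRNA pathway helicase, were in every class, *MAEL* between 189.5 CPM in cluster 6 and 649 CPM in cluster 12 among clusters 6 to 13, and *TDRD9* at 236 CPM in pachytene-like and 65.1 CPM in round spermatid-like cells.

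Genes of pachytene and late meiosis were shared by the pachytene-like and the unnamed cells. The 14 measured genes summed to 9514 CPM (95% interval 9314 to 9717) and 8859.9 CPM (95% interval 8773 to 8947) in these classes, to 4385 CPM in the round spermatid-like, 1781 in the early meiotic-like and 472 CPM in the spermatogonium-like cells. The most abundant was *CLGN*, a chaperone of the endoplasmic reticulum that folds sperm surface proteins, at 5033, 4147 and 1245 CPM in the pachytene-like, unnamed and round spermatid-like cells. *SPATA16*, a Golgi protein of acrosome formation, stood at 953, 1082 and 339 CPM, while *CALR3*, a testis calreticulin, was highest in the round spermatid-like cells at 1367 CPM. *HSPA4L*, a heat shock protein, stood at 696 and 624 CPM in pachytene-like and round spermatid-like cells. In the deep cells with few germ UMIs the list came to 124 CPM.

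Genes of cell division were highest in the spermatogonium-like and early meiotic-like cells. They were also found in the pachytene-like cells and, through other members, in the unnamed cells. The 13 measured genes summed to 4494, 4271, 2464, 2566 and 267 CPM from the spermatogonium-like to the round spermatid-like class. *CENPF*, a kinetochore protein of proliferating cells, stood at 2377 CPM in spermatogonium-like and 392 CPM in unnamed cells, and *TOP2A*, which untangles sister DNA, at 1011 and 259 CPM. *AURKA*, the spindle kinase, had the opposite order, 96.4 CPM in spermatogonium-like and 559.8 CPM (95% interval 538 to 582) in unnamed cells, with 574, 624, 572 and 371 CPM in clusters 7 to 10. *CDC20*, the activator of the anaphase-promoting complex, stood at 70.1 and 373 CPM. *CCNA1*, the meiotic cyclin, was chosen after its values were seen and stood at 599.7, 611, 465 and 394 CPM in clusters 7 to 10.

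Genes of the acrosome, the vesicle of enzymes and membrane proteins at the tip of the sperm, were spread over 2 classes. The 19 measured genes summed to 11726 CPM (95% interval 11594 to 11859) in the round spermatid-like, 5487 CPM in the unnamed and 2379 CPM in the pachytene-like cells, against 373 CPM in the spermatogonium-like cells and 169 CPM in the deep cells with few germ UMIs. Per cell the sums ran from 7567 through 12049 to 14894 CPM in the round spermatid-like and from 3646 through 5378 to 8719 CPM in the unnamed cells, so the classes overlapped at their edges. *IZUMO4*, of the family of sperm-egg fusion proteins, was highest in the unnamed cells at 3048 CPM, with 809 CPM in the round spermatid-like cells, and *ZPBP*, a binding protein of the zona pellucida, at 1025 and 417 CPM. *IZUMO2* and *TMEM190*, membrane proteins of the acrosome, had the opposite order, at 76.9 and 78.9 CPM in the unnamed and 1750.2 and 2401 CPM in the round spermatid-like cells.

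The list named for sperm surface proteins of fertilization, of which 7 genes were measured, summed to 6799 CPM in the pachytene-like, 5978 in the unnamed and 3236 CPM in the round spermatid-like cells. These sums came mostly from *CLGN* and *CALR3*, a chaperone and a calreticulin that are also in the pachytene list. The main members of the surface list besides *CLGN* and *CALR3* were *ADAM32* and *ADAM2*, membrane proteins of the fertilin family. *ADAM2* stood at 461, 409 and 52.0 CPM in these classes and *ADAM32* at 499.9, 541 and 489 CPM.

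Tail genes were at a high level in the pachytene-like cells too, while the head list was high mainly in the round spermatid-like class. The 29 measured tail genes summed to 987, 5181, 7069 and 8571 CPM (95% interval 8458 to 8685) from the early meiotic-like to the round spermatid-like class, and the 21 genes of the sperm head and manchette, the microtubule skirt that shapes the nucleus, to 307, 287, 904 and 12977 CPM (95% interval 12839 to 13117). *ODF2*, of the outer dense fibres, stood at 1165 CPM in pachytene-like and 2046 CPM in round spermatid-like cells. *TEKT1* and *TEKT2*, filament proteins of flagellar microtubules, stood at 108 and 196 CPM in pachytene-like and 1042 and 1282 CPM in round spermatid-like cells, and *MNS1*, of the axoneme, at 187 and 522 CPM. The head list also holds other spermatid genes, such as *SPATA19*. Among its members, *TEX29* stood at 118 CPM in the unnamed and 2423 CPM in the round spermatid-like cells. *SPATA19*, a mitochondrial protein of spermatids, stood at 7.35 and 1166 CPM, *CCIN*, of the sperm head skeleton, at 37.6 and 1021 CPM, and *HEMGN* at 6.01 and 992 CPM.

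Chromatin genes of spermatids rested on 2 rule genes. The 8 measured genes summed to 5369.5 CPM (95% interval 5280.4 to 5459.7) in the round spermatid-like cells and to 890.0 CPM in the unnamed cells. *HMGB4* ran from 12 through 125.5 to 561 UMIs per round spermatid-like cell, and *TNP1*, a transition protein that replaces histones, from 0 through 20.5 to 121. Both were higher from cluster 11 to cluster 13, *HMGB4* at 2199, 3897 and 4412 CPM and *TNP1* at 234, 637 and 1009.6 CPM. Of the 7 measured elongating spermatid-like markers, 4 were enriched in cluster 11 and all 7 in clusters 12 and 13, where 9 of the 11 round spermatid-like markers were enriched as well. The other elongating spermatid-like markers, *TNP2*, *PRM1*, *PRM2*, *PRM3*, *AKAP4* and *OAZ3*, had no symbol in the annotation. Names went by the number of enriched markers, so this list could reach at most 7. The name of clusters 12 and 13 therefore does not separate round from elongating spermatids. *BRDT*, the testis bromodomain protein that reads acetylated histones, was broader, with 459, 562 and 359 CPM in the pachytene-like, unnamed and round spermatid-like cells, and *BRD7*, a bromodomain protein of other tissues too, was highest in the early meiotic-like cells at 833 CPM.

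The regulators of transcription and translation in haploid cells divided in the same way. *YBX2*, which binds and stores messenger RNA, stood at 1973, 1459 and 833 CPM in the pachytene-like, unnamed and round spermatid-like cells, and *TCFL5*, a transcription factor of spermatocytes, at 674, 771 and 37.2 CPM. *FHL5*, a partner of the spermatid factor CREM, stood at 2.23 CPM in the unnamed and 591 CPM in the round spermatid-like cells, whereas *BRWD1*, which acts on spermatid chromatin, lay between 557 and 973 CPM in all 5 classes. Among kinases and phosphatases, *TSSK1B* and *TSSK4*, testis-specific serine kinases, were at 869 and 374 CPM in the round spermatid-like cells and at 9.80 and 45.2 CPM in the unnamed cells. *PPP1CC*, the phosphatase subunit of sperm, stood at 1320.2 CPM in the pachytene-like and 1340.2 CPM in the unnamed cells, and *CAMK4*, a calcium-dependent kinase, did not pass 92.9 CPM in any of these classes.

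Of the enzymes of energy metabolism with a testis form and a somatic form, the phosphoglycerate kinases and the pyruvate dehydrogenase subunits were measured in both forms. The testis form was the higher one in the pachytene-like, unnamed and round spermatid-like cells. *PGK2*, the testis phosphoglycerate kinase, stood at 329, 441 and 285 CPM in the pachytene-like, unnamed and round spermatid-like cells, where *PGK1* of the X chromosome stood at 0, 0.446 and 1.94 CPM. *PDHA2*, the testis pyruvate dehydrogenase subunit, stood at 188, 508 and 1282 CPM and *PDHA1* at 0, 0.668 and 0.775 CPM. In the spermatogonium-like and early meiotic-like cells *PDHA2* stood at 1.75 and 7.81 CPM and *PDHA1* at 3.51 and 7.81 CPM. *HK1*, a hexokinase, was highest in the round spermatid-like cells at 663 CPM. *TKTL1*, a transketolase relative, was instead a gene of the early classes, at 877 CPM in spermatogonium-like and 1.94 CPM in round spermatid-like cells, and *ENO1*, a glycolytic enzyme of most tissues, lay between 124 and 237 CPM in the 5 classes. These values compare tag counts of different genes and say nothing of protein.

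*AIF1*, known in other tissues as a gene of macrophages, was found in the spermatid-like clusters. It ran from 15 through 53 to 182 UMIs per round spermatid-like cell and from 0 through 0 to 1 per pachytene-like cell, without overlap. Its level was 36.7, 309, 727, 1536, 1859 and 1535 CPM in clusters 8 to 13, beside 12.8, 93.7, 378, 2199, 3897 and 4412 CPM of *HMGB4*. At 10 or more UMIs, *AIF1* was present in 89 deep germ cells and *HMGB4* in 80, all of which were among the 89. The 9 cells with *AIF1* alone therefore had fewer than 10 *HMGB4* UMIs. Of the 89 cells, 2 had any UMI of the complement genes *C1QA*, *C1QB* or *C1QC* of macrophages, and over all deep germ cells these genes stood at 0.467, 0.467 and 0.374 CPM.

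*PIWIL1* or *UCHL1* did not occur at 10 or more UMIs in the same cell as *HMGB4*. At 10 or more UMIs, *PIWIL1* was present in 39 cells and *UCHL1* in 93. No cell had 10 UMIs of both *PIWIL1* and *HMGB4*, of both *PIWIL1* and *AIF1*, of both *UCHL1* and *HMGB4*, or of both *UCHL1* and *PIWIL1*. Of the 93 *UCHL1* cells, 50 were spermatogonium-like, 40 early meiotic-like and 3 in the mixed cluster, and of the 39 *PIWIL1* cells, 15 were pachytene-like and 10 early meiotic-like. Most unnamed cells had few UMIs of these genes, with medians of 0 *UCHL1*, 2 *PIWIL1* and 0 *HMGB4* UMIs. Of the 96 unnamed cells, 10 had 10 or more *HMGB4* UMIs, up to 35, 13 had 10 or more *PIWIL1* UMIs, up to 65, and 19 had 10 or more *AIF1* UMIs.

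**Figure D3:**
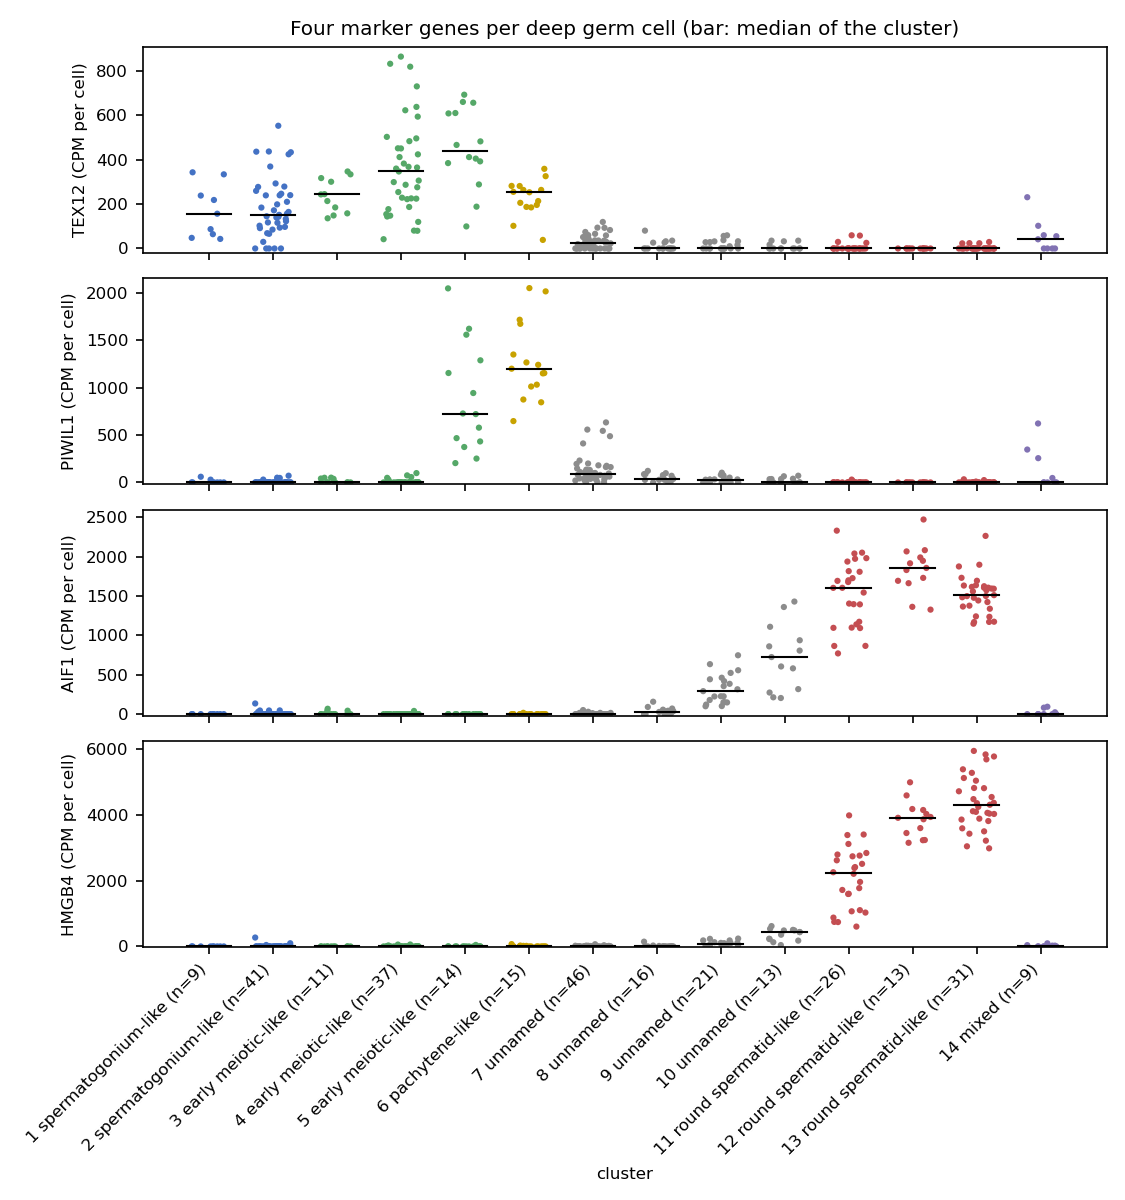
Level per cell, in CPM, of *PIWIL1*, *TEX12*, *HMGB4* and *AIF1* in each of the 302 deep germ cells by cluster, 1 point per cell. *PIWIL1* is high in clusters 5 and 6, *TEX12* in clusters 4 to 6, and *HMGB4* and *AIF1* in clusters 11 to 13.

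Because a deep cell shows a gene more readily than a shallow one, shares of cells with a UMI were compared after each cell was thinned to 1000 UMIs. *HMGB4* was then seen in 92.9% of the 70 round spermatid-like cells and in 64.3% of 98 typed SPT, with 126 shallower SPT left out, and *AIF1* in 82.9% and 50%. *TEX12* went the other way, in 22.6% of the 62 early meiotic-like cells and 44.9% of 49 typed early-SPC, with 23 shallower early-SPC left out. *PIWIL1* was seen in 73.3% of the 15 pachytene-like cells. Over all deep germ cells the shares were 9.93% for *PIWIL1*, 9.60% for *TEX12*, 23.2% for *HMGB4* and 25.8% for *AIF1*, where without thinning they were 41.7%, 60.6%, 41.7% and 44.4%. In the deep cells with few germ UMIs, whose median depth was 21964 UMIs against 30233, the thinned shares were 0.246%, 0.246%, 0.493% and 0.493%. For the first 3 genes the choice of the cells fixed this order, and *AIF1* lay largely in cells that *HMGB4* alone would have chosen. Free RNA can give such low shares, and its part in the shares was not tested.

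The deep germ cells were set against the 1043 typed SPG, early-SPC, late-SPC and SPT summed. The 84 other typed cells, where the authors' spermatogonial stem cells fall, were left out. The deep germ cells carried more RNA of late meiosis and of spermatids, but the choice and mix of cells fixed much of this order. Of the typed cells 486 were SPG, of which 0 met the minimum of 10 rule UMIs that every deep germ cell met. The differences below are therefore a description only. A gene was counted as different when its level, with 1 CPM added, differed at least 2-fold and both sides together had 50 or more counts. Of 10282 genes compared, 19.6% were higher and 13.3% lower in the deep germ cells, and the median log2 ratio was 0.19. Beside this background, 17 of 19 acrosome genes, 25 of 29 tail genes, 17 of 21 head genes, 7 of 7 surface genes and 10 of 14 pachytene genes were higher and none of these was lower. The surface and pachytene lists share *CLGN* and *CALR3*, so their counts are not separate. The summed lists differed by a log2 ratio of 1.30 (95% interval 1.25 to 1.35) for the acrosome, 1.38 (95% interval 1.33 to 1.43) for the tail and 1.19 (95% interval 1.15 to 1.24) for pachytene. The recombination list, which includes the rule gene *DMC1*, had 0 of 20 higher and 6 of 20 lower, with a log2 ratio of -0.46, and the synaptonemal list, which includes *SYCP3* and *TEX12*, had 1 of 13 higher and 2 of 13 lower, with -0.48. With every cell weighted equally these ratios changed sign, to 0.37 and 0.35. Of the spermatogonial genes 3 of 9 were lower and none was higher, but the log2 ratio of the summed list turned from -0.32 to 0.40 with equal weights and to 0.41 without cells with 10 or more UMIs of other-cell genes. The rule also took 84 deep cells with stem gene UMIs, all with a UMI of *UCHL1*, from the deep side. The typed side lost its 84 other typed cells by the authors' types and not by this rule. Without mitochondrial and ribosomal RNA the ratios were 1.08 for the acrosome, 0.98 for pachytene and -0.70 for the synaptonemal list. Over the same pair the muscle list differed by -3.06 and the T and NK cell list by -3.20. The part of RNA from other cells in these differences was not tested.

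Set against the typed late-SPC and SPT alone, the acrosome, head, tail, pachytene and surface lists differed little. Of 9911 genes compared, 9.88% were higher and 5.90% lower in the deep germ cells, with a median log2 ratio of 0.26. No acrosome, head, pachytene or surface gene passed 2-fold in either direction, and 2 of 29 tail genes were higher. In the spermatogonial list 4 of 9 genes were higher and 1 of 9 lower, in the replication list 8 of 12 were higher, and in the synaptonemal list, with a median of 0.24, 3 of 13. Higher too were 6 of 20 recombination genes and 5 of 13 division genes. The deep side held spermatogonium-like and early meiotic-like cells here while SPG and early-SPC were left out of the typed side. A higher level of early lists follows from the groups compared, and the low levels of late lists in these cells lower the deep sums. With mitochondrial RNA alone left out of both sides, an alternative chosen after seeing the data, the log2 ratio of the summed list was 0.27 in place of 0.32 for the acrosome, 0.34 in place of 0.40 for the tail and 0.16 in place of 0.21 for pachytene. Of the 10 genes with the largest ratio, 6 had no symbol, and the named ones were *TCEA3*, a transcription elongation factor, *PTPRZ1*, a receptor phosphatase, *E2F1*, a regulator of S phase, and *CRABP1*, a binding protein of retinoic acid. *TCEA3*, *PTPRZ1* and *E2F1* had no UMI in the 747920 UMIs of these typed cells and were at least 8.18-fold, 5.13-fold and 3.26-fold higher, counted against a limit of 3 counts over the group. *CRABP1* had 662 counts against 3, a ratio of 15.4 (95% interval 5.25 to 75.0). Of the 10 genes with the smallest ratio, 2 had no symbol. The 8 named ones are known from other cells, *CCL5*, a chemokine of T cells (log2 ratio -3.60), *CXCL12*, a stromal chemokine (-3.59), the matrix genes *OGN* (-3.27) and *SPARCL1* (-3.05), the smooth muscle actin *ACTA2* (-3.00) and *IGFBP6* (-2.83), or from the immediate stress response, *FOS* (-2.95) and *ATF3* (-2.92).

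Within stages, the round spermatid-like cells had higher levels of spermatid lists than the typed SPT. The log2 ratios were 0.93 (95% interval 0.86 to 1.00) for the head, 0.87 for chromatin, 0.85 for the acrosome and 0.73 for the tail, and 0.84 for *AIF1* (1590.0 against 887 CPM). The rise was not limited to spermatid lists. It was 0.80 for the piRNA, 0.76 for the energy, 0.72 for the kinase, 0.62 for the surface, 0.57 for the pachytene and 0.34 for the recombination list. The spermatogonial (-1.07) and replication (-1.55) lists were lower, and the synaptonemal list stood at 699.4 against 699.5 CPM. Past 2-fold stood 7 of 19 acrosome genes and 5 of 21 head genes, but only 3 of 24 tail genes and 0 of 8 chromatin genes, beside 15.6% of the 5368 genes compared that were higher and 10.2% that were lower. The median log2 ratio of all these genes was 0.40. The rule genes *HMGB4*, at 3468 against 1749 CPM, and *TNP1*, at 646 against 357 CPM, helped to choose the deep cells but not the typed ones, so their values and those of the chromatin list that holds them are a description only. Over the same pair, muscle genes differed by -3.34 and T and NK cell genes by -3.25, and the mitochondrial medians were 0.269% and 8.86%. With mitochondrial and ribosomal RNA left out, an alternative chosen after seeing the data, the ratios were 0.69 for the head, 0.63 for chromatin, 0.61 for the acrosome and 0.49 for the tail. With mitochondrial RNA alone left out they were 0.81, 0.75, 0.73 and 0.61 in the same order. Without its rule genes the chromatin list had a ratio of 0.61. The part of RNA from other cells in the difference was not tested.

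In the early stage the direction was different. The early meiotic-like cells had lower levels than the typed early-SPC of the synaptonemal list and of the recombination list. The sums were 4959.7 against 8926 CPM for the synaptonemal list, a log2 ratio of -0.85 (95% interval -0.91 to -0.78), and 4320.1 against 9411 CPM for the recombination list, a log2 ratio of -1.12 (95% interval -1.19 to -1.06). Past 2-fold, 7 of 17 recombination genes were lower and 2 of 17 higher, beside 13.0% lower and 35.7% higher of the 4528 genes compared. The median log2 ratio of all these genes was 0.45. Of the synaptonemal genes, 3 of 12 were lower and 1 of 12 higher. The levels of the spermatogonial list (log2 ratio 1.44), of the piRNA list, which holds rule genes (1.13), and of the pachytene list (1.34) were higher. Cluster 5 gave most of the difference in the pachytene list, with 339.5, 455 and 4931 CPM in clusters 3 to 5, and the piRNA list stood at 2464, 2422 and 6232 CPM. Without cluster 5, an alternative chosen after seeing the data, the ratio of the pachytene list turned to -0.72, that of the piRNA list was 0.58 and that of the spermatogonial list 1.89. Without its rule genes the piRNA list had a ratio of 0.96. *SMC1B* stood at 1183 against 1784 CPM and *SYCP1* at 688 against 1359 CPM, while *UCHL1* stood at 829 against 133 CPM. Mitochondrial shares were alike here, with medians of 11.8% and 11.9%, and with mitochondrial RNA alone left out the ratios were -0.86 for the synaptonemal and -1.13 for the recombination list. The muscle list differed by -1.84, at 153 against 551 CPM, and its part in the differences was not tested.

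The unnamed cells were set beside the typed late-SPC, chosen for their list levels, where the median log2 ratio of all genes was 0.27. Higher were the tail list at a log2 ratio of 0.88 (95% interval 0.81 to 0.95), the acrosome list (0.79), the division list (0.70) and the pachytene list (0.49), and lower was the synaptonemal list (-0.48). Past 2-fold, 10 of 25 tail genes and 5 of 13 division genes were higher, beside 13.8% of the 6502 genes compared, and 5 of 11 synaptonemal genes were lower, beside 11.1%. *AURKA* stood at 559.8 against 241 CPM, *IZUMO4* at 3048 against 1596 CPM, and *PIWIL1* at 109.8 against 414 CPM. Without mitochondrial and ribosomal RNA the ratios were 0.70 for the tail, 0.52 for division, 0.31 for pachytene and -0.66 for the synaptonemal list, also chosen after seeing the data, and with mitochondrial RNA alone left out 0.79, 0.60, 0.40 and -0.58. For the acrosome they were 0.61 without both and 0.70 without mitochondrial RNA alone. The muscle list differed by -2.74 here.

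**Figure D4:**
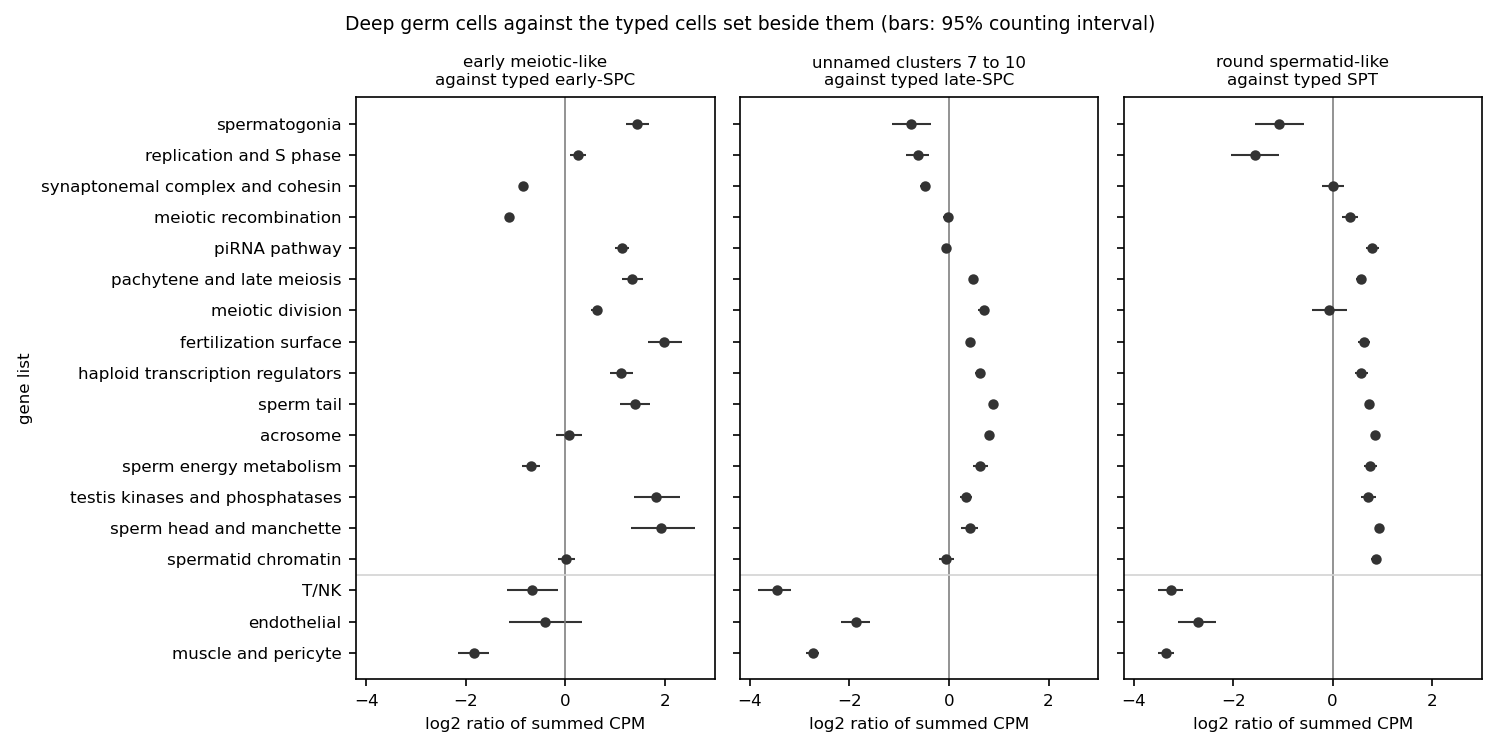
Log2 ratio of each program list, with its 95% counting interval, in 3 classes of deep germ cells against the typed cells set beside them: round spermatid-like against SPT, early meiotic-like against early-SPC and unnamed against late-SPC. Spermatid lists lie right of 0 for round spermatid-like cells, and the synaptonemal and recombination lists left of 0 for early meiotic-like cells.

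The markers of other cell types are given first over all 302 deep germ cells, cluster 14 included. The T and NK cell list (7 of 8 measured genes with a UMI, *PRF1* at 0) came to 60.2 CPM, with *CCL5* as its most abundant gene at 30.4 CPM, against 748 CPM in typed SPG, 158 in early-SPC, 353 in late-SPC and 935 CPM in SPT. The early meiotic-like cells had 99.2 CPM, nearer to the typed early-SPC. The muscle list (9 of 9 genes) came to 317 CPM, led by *TAGLN* (164 CPM), against 5655 CPM in the deep cells with few germ UMIs. The endothelial list (9 of 9) came to 117 CPM, led by *VWF* (40.3 CPM), and the stromal list (6 of 6) to 24.9 CPM, led by *COL1A2* (12.2 CPM). The Leydig cell list (3 of 3) came to 19.4 CPM, of which *DLK1* gave 18.0 CPM. Without cluster 14, an alternative chosen after seeing the data, the endothelial list came to 71.6 CPM (95% interval 66.5 to 76.9), the muscle list to 220.4 CPM (95% interval 211 to 229.6), the stromal list to 21.4 CPM and the T and NK cell list to 60.5 CPM.

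The mixed cluster of 9 cells stood apart, with 1653 CPM of endothelial and 3558 CPM of muscle genes beside 1546 CPM of synaptonemal genes. Scrublet, a doublet caller, marked 0 of the 11991 cells, which is not taken as a lack of doublets. Whether its threshold suited this library was not tested, and no cell was removed as a doublet. Of the 10 deep germ cells within the highest 10% of Scrublet scores, 6 were in the mixed cluster. At 10 or more UMIs of the 5 lists of T and NK, macrophage, endothelial, muscle and stromal genes, 140 deep germ cells were counted, 12 spermatogonium-like, 11 early meiotic-like, 10 pachytene-like, 58 unnamed, 40 round spermatid-like and all 9 of the mixed cluster. This count includes cells with *CD14*, described below. Without the macrophage list it was 103 cells, of which 12, 10, 9, 34, 29 and 9 lay in the classes in the same order. Without the 140 cells the chromatin list of the round spermatid-like cells stood at 5658 CPM in place of 5369.5 and the spermatogonial list of the spermatogonium-like cells at 3033 CPM in place of 3149.9, an alternative chosen after seeing the data.

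**Figure D5:**
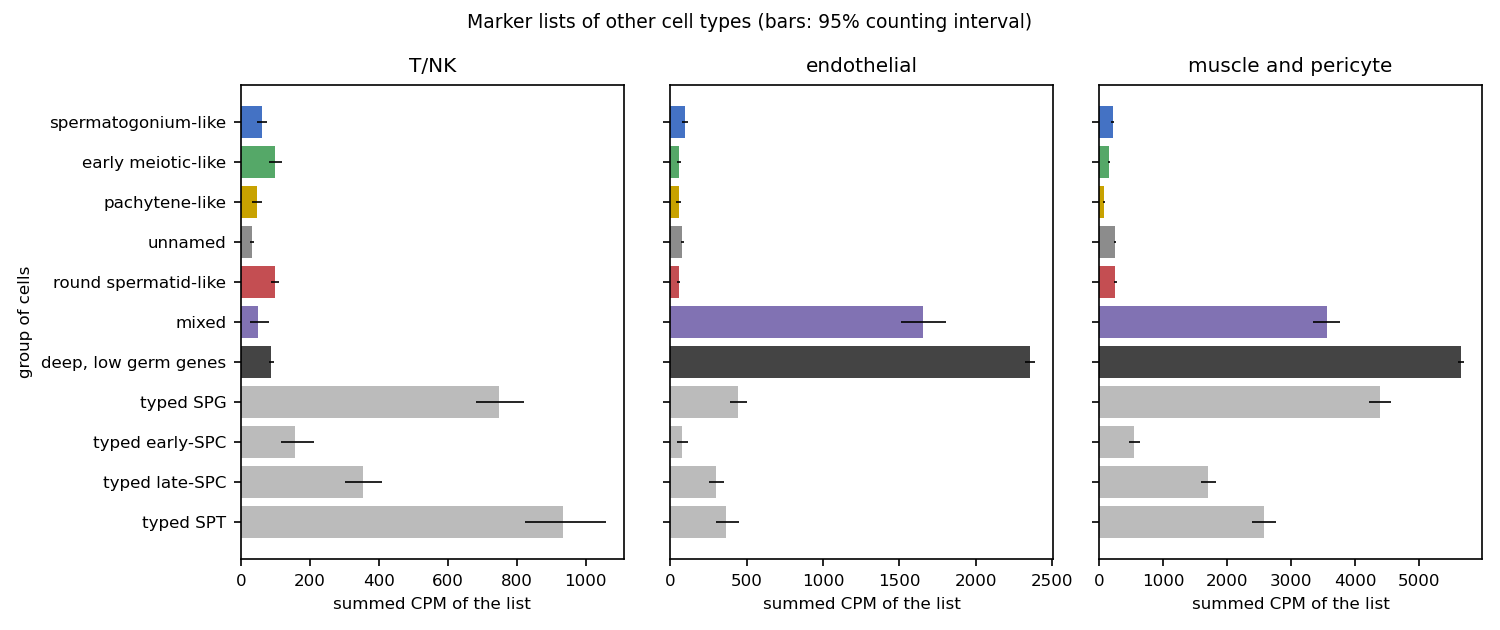
Summed level (CPM) of the T and NK cell, endothelial and muscle lists in the cluster classes of deep germ cells, in deep cells with few germ UMIs and in typed germ cells, with 95% counting intervals as bars. The mixed cluster reaches 1653 CPM of endothelial genes, and the other classes stay at or below 96.4 CPM.

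Some genes from these lists were carried by germ cell clusters with little of the rest of their list. *DLK1*, which gave most of the Leydig cell list, was among the leading genes of spermatogonium-like cluster 1 at 291 CPM. This cluster of 9 cells also had 3 endothelial, 2 muscle and 3 stromal markers enriched, and the source of its *DLK1* was not tested. *CD14*, a receptor of monocytes, gave 68.8 of the 72.3 CPM of the macrophage list and was highest in the unnamed cells at 129.7 CPM, with *CSF1R* at 2.23 and *C1QA* at 0.668 CPM there. *SOX9*, the Sertoli cell factor, gave 75.6 of the 83.1 CPM of the Sertoli list and stood at 153 CPM in the pachytene-like, 141 CPM in the unnamed and 7.75 CPM in the round spermatid-like cells. *FSHR*, *INHBB* and *CITED1* of that list had no UMI among the 10701072 UMIs, which allows up to 0.280 CPM each.

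The genes with the highest level in the deep germ cells were, beside mitochondrial and ribosomal RNA and genes without a symbol, *CALM3*, a calmodulin (4844 CPM), *GSTM3*, a glutathione transferase (4336 CPM), and *DKKL1*, an acrosomal protein (4216 CPM). The mitochondrial *COX3* stood at 5079 CPM. Of the 26961 genes of the annotation, 18480 had a UMI in the deep germ cells, and all 211 measured genes of the 17 program lists were among them.

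By the same rule and limits, the cattle-yak library held 95 cells, 22.0% of its 432 deep cells, against 38.1% in the yak (exact binomial 95% intervals 18.2 to 26.2 and 34.7 to 41.6). They carried the spermatogonial and early programs, with 2986 CPM of the spermatogonial list and 2583 CPM of the synaptonemal list, beside 3149.9 and 3233 CPM in the yak spermatogonium-like cells. *HMGB4*, *TNP1* and *AIF1* had no UMI among the 2535791 UMIs of these cells, which allows up to 1.18 CPM each, and the acrosome list came to 365 CPM. Against these cells, 10 of 11 spermatogonial genes were lower and 18 of 19 acrosome genes higher in the yak deep germ cells, beside 23.1% lower and 33.1% higher of the 10491 genes compared, with a median log2 ratio of 0.11. The median mitochondrial share of the cattle-yak cells was 21.1%. With 1 library each, genotype and library cannot be told apart.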

How the data were processed

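The authors deposited raw UMI counts per gene and cell barcode for 2 libraries, 1 yak and 1 cattle-yak, and these counts were used as deposited. Cell Ranger is given as 5.0.0 in the matrix header and as 2.1.1 in the submitters' processing notes. Reads were mapped to the yak genome per the methods of the study, which then kept cells within 2 SD of the mean of genes and UMIs and below 30% mitochondrial UMIs. The deposited matrices hold the cells before that filter. Total UMIs were 60816600 in the yak library (median 2533 per cell) and 43774841 in the cattle-yak library (median 3155 per cell).

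Depth limits were the mean plus 2 SD over all yak cells. Cell types of shallower cells are the authors' own, matched by barcode. UMIs were summed per group and given as CPM with exact Poisson intervals, shares with exact binomial (Clopper-Pearson) intervals, and ratios of summed lists with exact conditional intervals, all at 95%. Single genes were compared as log2 of CPM plus 1, among genes with 50 or more summed counts. A count of 0 was taken to allow up to 3 counts. Deep germ cells were clustered in scanpy 1.11.5 (igraph 0.11.9) by the Leiden method at resolution 1 on log counts per 10000, 2000 variable genes without list genes, 20 components and 15 neighbours. A cluster was named where at least 3 markers of 1 class were enriched 2-fold in it, more than of any other class. A tie went to the class with more of its markers among the 10 leading genes, and otherwise left the cluster unnamed. Cluster 14, with 9 endothelial and 9 muscle markers enriched beside 3 spermatogonium-like ones, was called mixed and given no class name.

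Members and lists were chosen with earlier results of these data known. Of 366 list genes, 262 had a symbol in the annotation, and the others were not analysed here. Named genes were the rule genes and markers, the 4 genes of each program list with the highest CPM in the deep germ cells, the 3 leading genes of each cluster, the 10 largest and 10 smallest ratios to typed late-SPC and SPT, the 10 genes with the highest CPM, and the most abundant gene of each marker list of another cell type. Some other members of the marker lists, such as *C1QA*, *CSF1R*, *PRF1* and *FSHR*, and single genes such as *HSPA2* and *CCNA1* were named to describe a list or cluster. Genes without a symbol are not named. With 1 library per group no test was made. Alternatives changed the depth limits, germ minimum, denominator, cell weights, doublet and other-cell removal, thinning and clustering.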

Additional observations from a re-analysis of the deposited data

How the results depend on the processing

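No paired analysis was possible because each group had 1 library and the results come from no test. The number of deep germ cells was 188 in place of 302 with limits at the mean plus 3 SD. It stayed between 214 and 373 under the other 7 settings of the rule. The log2 ratio to all typed germ cells was, with mitochondrial and ribosomal RNA left out, with every cell weighted equally, without cells with 10 or more UMIs of other cell lists, without the cells of highest Scrublet score and with a minimum of 20 germ UMIs in turn, 0.98, 1.10, 0.75, 1.11 and 1.34 for the pachytene list (1.19 as reported) and 1.08, 1.11, 1.04, 1.23 and 1.51 for the acrosome list (1.30). For the synaptonemal list (-0.48) it was -0.70, 0.35, -0.15, -0.56 and -0.54, so its sign turned with equal weights. For the chromatin list (0.78) it was 0.57 without mitochondrial and ribosomal RNA and 0.98 with a minimum of 20 germ UMIs. With equal weights and without cells with other-cell UMIs, the ratio turned from -0.32 to 0.40 and 0.41 for the spermatogonial and from -0.19 to 0.65 and 0.46 for the replication list. With the macrophage list not counted among the other-cell lists, an alternative chosen after seeing the data, the ratios were 1.02 for the pachytene, 1.23 for the acrosome and -0.33 for the synaptonemal list, and those of the spermatogonial and replication lists turned to 0.039 and 0.15. Without cluster 5, the pachytene list of the early meiotic-like cells turned from 1.34 to -0.72 against the typed early-SPC. The recombination list turned from -0.46 to 0.37 with equal weights. The list of somatic paralogs turned from 0.03 to -0.18 without mitochondrial and ribosomal RNA and to -0.15 with equal weights. The cause of these turns was not tested.

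At 4-fold, 55 genes were higher and 394 lower than in typed germ cells, in place of 2014 and 1372. Lower genes numbered 2878 with no minimum of counts and 608 with a minimum of 200. Thinned to 500 UMIs, the shares were 6.62% for *PIWIL1*, 5.63% for *TEX12* and 15.9% for *AIF1*, and without thinning 41.7%, 60.6% and 44.4%, with 41.7% for *HMGB4*. At Leiden resolution 0.5 there were 8 clusters, with 9 spermatogonium-like cells in place of 50. At resolution 1.5 and with list genes used, 50, 62 and 70 cells were in the spermatogonium-like, early meiotic-like and round spermatid-like clusters, and with 10 components 40, 72 and 70. The typed cells had median UMIs near 1029, and in the deep cells too the share with a UMI moved with depth, as the thinned values show.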
